A study of Mus musculus with 10 samples.

Results

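The genes described here are Ins1 and Ins2, which encode the 2 insulins of the mouse, Iapp, which encodes islet amyloid polypeptide (amylin), and Ucn3, which encodes urocortin 3. They were chosen by gene symbol as the peptide hormone genes of the β cell, and all 4 were found among the 17945 named genes of the table. Their values were measured by RNA sequencing of whole pancreatic islets, in 10 libraries from C57BL/6 mice aged 18 weeks. The 5 control libraries came from mice with floxed Grk5 alleles (Grk5 flox/flox) and no Cre. The 5 knockout libraries came from Pdx1-CreER; Grk5 flox/flox mice, in which a Cre recombinase fused to an estrogen receptor domain is driven by the Pdx1 promoter and is used to delete Grk5 in β cells. All 10 libraries share the floxed alleles, so the Cre driver and the deletion differ together between the groups. Pdx1 is also expressed in δ cells and early pancreatic progenitors, and a CreER enzyme needs a ligand such as tamoxifen, and its use is not described in the sources used here. Grk5 encodes a kinase of activated G protein-coupled receptors, and the comparison asks whether the hormone genes of the β cell differ without it.

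Insulin is made as preproinsulin, which is cut in the endoplasmic reticulum and the secretory granule to yield insulin and C-peptide. Mice carry a pair of insulin genes: Ins2 has the gene structure shared with other mammals, whereas Ins1 is a retrotransposed copy that lacks one intron and is found in mice and rats. Amylin is stored in the same granules, is released together with insulin, and slows gastric emptying and promotes satiety through the calcitonin receptor joined to a RAMP protein. Urocortin 3 is released from β cells, acts on the receptor Crhr2 of neighbouring δ cells to stimulate somatostatin release, and is widely used as a marker of mature β cells in the mouse.

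The values were normalized counts, and their sum per library ran from 5534386 to 7358040. They were not whole reads, so the sequencing depth could only be approximated. The total divided by the commonest low value was lowest in knockout 1 (2072863) and highest in knockout 3 (10951875), and genes above 0 numbered 10222 and 14632 in the same libraries. Whole-gene Grk5 values overlapped between the groups, from 128 to 387 in controls and from 94.4 to 269.8 in knockouts. Esr1, which encodes the estrogen receptor from which the ligand-binding domain of CreER is derived, was at 0 to 10.5 in controls 1, 3 and 4 and at 1517 to 3177 in the knockouts. The libraries labelled control 2 and control 5 had Esr1 values of 2495 and 773, unlike the other 3 controls. What these reads came from was not tested. For the 4 members, the fold changes, the Ins2 to Ins1 ratio, the correlations that passed and the shares are also given without controls 2 and 5. For other genes and lists, only some values are given without these 2 libraries. Control and knockout mean the libraries so labelled. The labels do not state that each library came from a separate animal. The p-values for group differences therefore set each difference against the spread between these libraries, which may not be that between animals.

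None of the 4 hormone genes differed between knockout and control libraries beyond the spread within the groups. Fitted means were lower in the knockouts by 0.08 (Ins1), 0.01 (Ins2) and 0.06 (Iapp) on the log2 scale, while Ucn3 had the largest difference of the 4, -0.21. Of 11711 genes tested with limma, 0 (0%) had a Benjamini-Hochberg adjusted p under 0.05, 587 (5.01%) had an unadjusted p under 0.05, and 0 of the 4 members was among the latter. Of these 587 genes, 311 (2.66% of all tested) were lower in knockouts. Without controls 2 and 5, 1 of 11013 genes (0.00908%) had a limma adjusted p under 0.05 and 461 (4.19%) an unadjusted p under 0.05, with 0 of the 4 members in either set. All 4 members had a negative log2 fold change, as did 52.4% of the genes tested, and the sign of Ins2 turned positive under 3 of 5 other scalings. The median over all tested genes was -0.03. In whole islets, fewer β cells and less RNA per β cell cannot be told apart.

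**Figure D1:**
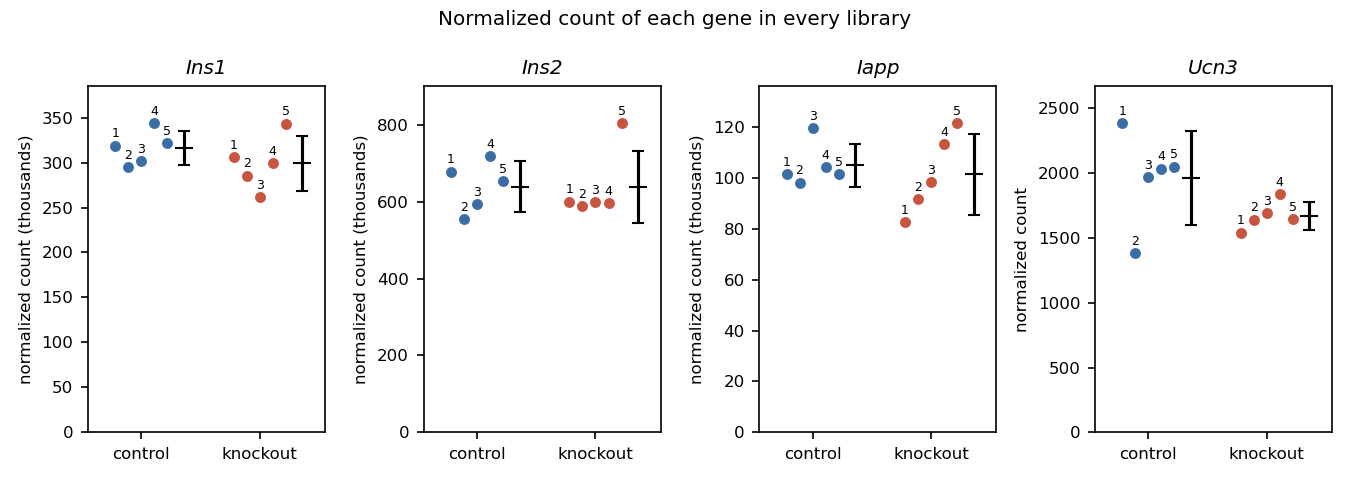
Normalized count of Ins1, Ins2, Iapp (in units of 1000 counts) and Ucn3 in each of the 5 control and 5 knockout libraries, numbered by replicate, with the mean and SD of each group beside the points. Every axis starts at 0. The groups overlap for all 4 genes, knockout 5 is highest for Ins2 at 803858, and control 2 is lowest for Ucn3 at 1382.

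The insulin genes come first because their near-identical sequences decide how far their reads can be told apart. In the GENCODE M21 annotation of GRCm38, Ins1 lies on chromosome 19 at 52264297 to 52265476 on the plus strand with 2 exons in its transcript Ins1-201. Ins2 lies on chromosome 7 at 142678656 to 142743381 on the minus strand, which is the span of its whole gene record. Its transcript Ins2-201 has 3 exons and 478 bases. The authors' own genome build was not given in the sources used here. Below are the first 294 bases of the Ins1 and the first 300 of the Ins2 coding sequence, 5′ to 3′, with capitals at the aligned bases that differ or that only one of them holds. The bases left out, up to the stop codon, are identical.
Ins1: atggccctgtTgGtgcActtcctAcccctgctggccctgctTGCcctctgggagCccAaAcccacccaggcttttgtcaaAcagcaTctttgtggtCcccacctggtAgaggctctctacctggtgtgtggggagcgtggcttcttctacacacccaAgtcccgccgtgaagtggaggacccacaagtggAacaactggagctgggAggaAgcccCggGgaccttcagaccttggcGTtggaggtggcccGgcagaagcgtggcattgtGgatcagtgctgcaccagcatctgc
Ins2: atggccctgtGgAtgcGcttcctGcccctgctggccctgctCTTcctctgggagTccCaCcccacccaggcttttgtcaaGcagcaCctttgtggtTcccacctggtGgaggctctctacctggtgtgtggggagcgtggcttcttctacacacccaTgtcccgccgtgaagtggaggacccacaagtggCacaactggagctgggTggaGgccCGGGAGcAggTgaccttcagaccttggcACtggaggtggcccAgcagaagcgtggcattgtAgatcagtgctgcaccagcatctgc
The whole coding sequences, 324 and 330 bases long, matched at 300 of 330 aligned positions (90.9%), with 24 mismatches and 6 positions present in Ins2 alone. The longest stretch without a difference was 54 bases. Per the labels, fragments were read for 75 bases from each end. None of the 250 windows of 75 bases in the Ins1 coding sequence occurred in an annotated Ins2 transcript, and none of the 256 Ins2 windows occurred in Ins1. Up to 2 mismatches were enough to match 47 windows of each gene to the other. How the authors treated reads that fit both genes was not given in the sources used here, so the split between Ins1 and Ins2 is uncertain to that extent.

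Ins1 had 318785, 294526, 301529, 343823 and 321211 normalized counts in controls 1 to 5. Knockouts 1 to 5 had 305686, 285342, 261275, 299183 and 343351. Knockout 3 was the lowest and control 4 the highest of the 10 libraries, the highest being 1.32 times the lowest, and 4 of 5 knockouts lay below the control mean. Group means were 315975 ± 19232 in controls and 298967 ± 30089 in knockouts (SD, n = 5 libraries each). The log2 fold change was -0.08 ± 0.06 (SE; 95% interval -0.21 to 0.05), with a limma p of 0.189 and a Benjamini-Hochberg adjusted p of 0.946. An exact 2-sided permutation test of the same difference gave p = 0.310, where the smallest value that 252 arrangements allow is 0.00794. Knockout 5 weighed most: without it the difference was -0.13 ± 0.05, with an unadjusted limma p of 0.0203 and an adjusted p of 0.866. Without controls 2 and 5 it was -0.11 ± 0.08 (limma adjusted p = 0.998).

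Ins2 had the highest mean of all 17945 genes, 639126 ± 64978 normalized counts in controls and 637297 ± 93206 in knockouts. The single values in controls 1 to 5 were 677350, 554944, 593607, 717153 and 652575. In knockouts 1 to 5 they were 599965, 588745, 597821, 596094 and 803858. Knockouts 1 to 4 sat close together within the range of the controls, and knockout 5 stood above every other library. The log2 fold change was -0.01 ± 0.10 (95% interval -0.24 to 0.22), with a limma adjusted p of 0.996 and an exact permutation p of 0.913. It was -0.10 ± 0.06 without knockout 5 (limma adjusted p = 0.875) and -0.06 ± 0.10 without controls 2 and 5 (limma adjusted p = 0.998). In the authors' deposited table the log2 fold changes were -0.08 for Ins1 and -0.0041 for Ins2, both with an adjusted p of 0.999.

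The ratio of Ins2 to Ins1 within a library does not depend on how libraries were scaled to each other. In controls 1 to 5 it was 2.12, 1.88, 1.97, 2.09 and 2.03. In knockouts 1 to 5 it was 1.96, 2.06, 2.29, 1.99 and 2.34. Knockouts 3 and 5 had the highest ratios, and the other 3 knockouts lay within the control range. The means were 2.02 ± 0.0956 and 2.13 ± 0.174 (SD, n = 5 each), a difference of 0.07 in the log2 ratio. An exact 2-sided permutation test gave p = 0.270, or 0.571 after Benjamini-Hochberg adjustment over the 6 pairs of members. The difference was 0.04 without knockout 5 and 0.05 without controls 2 and 5 (exact permutation p = 0.536). Knockout 3 reached its high ratio with the lowest Ins1 value of all libraries, whereas knockout 5 reached it with the highest Ins2 value.

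**Figure D2:**
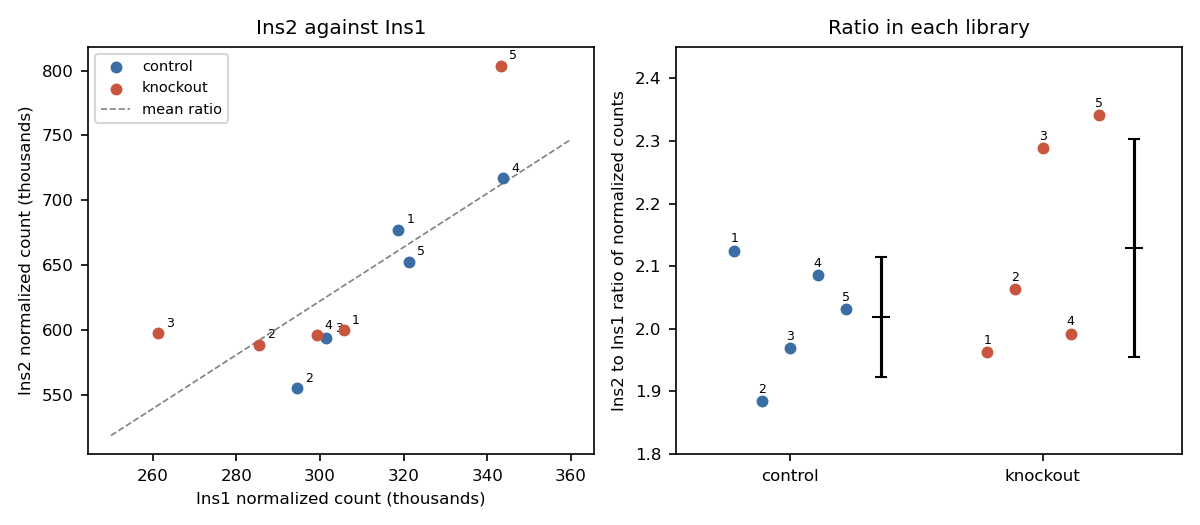
Left, Ins2 against Ins1 normalized counts (in units of 1000) in each library, with a dashed line at the mean ratio of 2.07. Right, the Ins2 to Ins1 ratio in each library with the mean and SD of each group, on an axis that does not start at 0. Knockouts 3 and 5 lie above the line at ratios of 2.29 and 2.34, and control 2 is lowest at 1.88.

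Levels of different genes can be set beside each other only per length. Per kilobase of coding sequence the Ins2 to Ins1 ratio was 1.98 ± 0.0938 in controls and 2.09 ± 0.171 in knockouts. Per kilobase of the annotated transcripts, 1062 bases for Ins1-201 and 478 bases for Ins2-201, it was 4.49 ± 0.212 and 4.73 ± 0.386. The ratio thus depended on the length used, and both lengths placed Ins2 above Ins1 in all 10 libraries. On the transcript scale, normalized counts per kilobase in controls were 1337083 ± 135938 for Ins2, 297528 ± 18110 for Ins1, 125047 ± 10012 for Iapp and 1329 ± 246 for Ucn3. The order Ins2, Ins1, Iapp, Ucn3 held in every library, with no overlap between neighbours.

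Iapp, the amylin gene, lies on chromosome 6 at 142298423 to 142303961 on the plus strand of GRCm38 and overlaps Slco1a5 on the opposite strand. The library kit kept strand information per the labels, but whether strand was used in counting was not given in the sources used here. Iapp had 101449, 98118, 119439, 104197 and 101367 normalized counts in controls 1 to 5. In knockouts 1 to 5 it had 82456, 91700, 98269, 113286 and 121486. Control 3 stood above the other 4 controls, which differed little, while the knockouts were spread evenly on both sides of the control mean. Means were 104914 ± 8400 in controls and 101440 ± 15871 in knockouts. The log2 fold change was -0.06 ± 0.09 (95% interval -0.25 to 0.13), with a limma adjusted p of 0.971 and an exact permutation p of 0.627. It was -0.11 ± 0.11 without controls 2 and 5 (limma adjusted p = 0.998) and -0.13 ± 0.08 without knockout 5 (limma adjusted p = 0.875), and it turned to 0.01 without knockout 1. The authors' deposited table gave -0.05 with an adjusted p of 0.999.

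Set against insulin, Iapp came to 149.8, 177, 201, 145 and 155 per 1000 Ins2 counts in controls 1 to 5. In knockouts 1 to 5 the figure was 137, 156, 164, 190.0 and 151. Control 3 was highest and knockout 1 lowest, and the groups overlapped over most of their range. The log2 ratio of Iapp to Ins2 differed by -0.05 between the groups (exact permutation p = 0.683, adjusted 0.817 over the 6 pairs), and that of Iapp to Ins1 by 0.02 (p = 0.817, adjusted 0.817, the same exact test).

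Ucn3, the urocortin 3 gene, is on chromosome 13 at 3940688 to 3945349 on the minus strand of GRCm38 and ranked 296 by mean among all genes. Its normalized counts in controls 1 to 5 were 2387, 1382, 1968, 2034 and 2051. Those in knockouts 1 to 5 were 1541, 1642, 1692, 1837 and 1643. All 5 knockouts lay below the control mean, and 4 of 5 controls lay above the highest knockout, but control 2 was below every knockout, so the groups overlapped. Means were 1964 ± 364 in controls and 1671 ± 108 in knockouts. The log2 fold change was -0.21 ± 0.17 (95% interval -0.57 to 0.15), with a limma p of 0.229 and an adjusted p of 0.955. An exact permutation test gave p = 0.151. The authors' deposited table gave -0.23 with an adjusted p of 0.971.

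Control 2 is one of the control libraries in which Esr1 was high. It was also the only control not above the highest knockout for Ucn3, so the groups could not overlap once it was left out. With control 2 left out, 1.84% of the tested genes did not overlap in either direction and 1.02% in the same direction, against 0.862% for all 10 libraries. Those shares drop the same library for every gene, not the one that made a gene overlap, so they are no like measure for Ucn3. Without control 2 the Ucn3 difference was -0.33 ± 0.16 (95% interval -0.68 to 0.01), with an unadjusted limma p of 0.0594 and an adjusted p of 0.977. Without controls 2 and 5 it was -0.35 ± 0.18 (95% interval -0.73 to 0.04), with an unadjusted limma p of 0.0768 and an adjusted p of 0.998. Left without control 1, the highest library, it was -0.14. Per 1000 Ins2 counts, Ucn3 came to 3.52, 2.49, 3.32, 2.84 and 3.14 in controls 1 to 5. Knockouts 1 to 5 had 2.57, 2.79, 2.83, 3.08 and 2.04, with knockout 5 the lowest and control 1 the highest of the 10 libraries. The log2 ratio of Ucn3 to Ins2 differed by -0.20 (exact permutation p = 0.167, adjusted 0.571), that to Ins1 by -0.13 (p = 0.381, adjusted 0.571) and that to Iapp by -0.15 (p = 0.341, adjusted 0.571). Leaving out control 2 moved these 3 differences to -0.28, -0.23 and -0.25. Leaving out control 1 moved those to Ins1 and Iapp to -0.06 and -0.07, and leaving out knockout 5 moved those to Ins2, Ins1 and Iapp to -0.11, -0.07 and -0.08.

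Markers of acinar cells, the enzyme-secreting cells that surround islets, moved with Ucn3. All 21 tested genes of the 25 on the acinar list had lower means in knockouts, with a median log2 fold change of -0.96 (-1.43 over the 20 genes that passed the filter without controls 2 and 5). Of all genes tested, 52.4% were lower. By limma, 0 of the 21 had an adjusted p under 0.05 and 1 an unadjusted p under 0.05, against 5.01% of all genes. The acinar genes vary together between libraries, so they do not count as separate results. The summed level of the list ran from 25338 (control 2) to 323670 in controls and from 37747 to 101738 in knockouts. Over the 10 libraries, Ucn3 was higher where the mean log2 level of the acinar genes was higher (Pearson r = 0.770, permutation p = 0.00884, adjusted 0.0354 over the 4 members; Spearman rho = 0.842, permutation p = 0.00358, adjusted 0.0143). Without controls 2 and 4, the extremes of the acinar level, r was 0.720, and within groups it was 0.780 in the 5 controls and 0.191 in the 5 knockouts. The relation no longer passed without controls 2 and 5, with r = 0.650 (exact permutation p = 0.102, adjusted 0.408) and rho = 0.762 (exact permutation p = 0.0368, adjusted 0.147). Ins1, Ins2 and Iapp gave r of 0.318, 0.416 and 0.190 (permutation p adjusted over the 4 members, 0.499, 0.470 and 0.599). Within the 5 controls, however, r was 0.903 for Ins1, 0.907 for Ins2 and 0.248 for Iapp. Within the 5 knockouts it was -0.704, -0.137 and 0.0540 in the same order. Without controls 2 and 4 it was -0.0830, 0.0063 and 0.169. A high r in the controls was thus not particular to Ucn3. With the acinar level as a covariate, the Ucn3 difference was -0.07 ± 0.19 (limma adjusted p = 0.999). The part of acinar RNA in the Ucn3 difference was not tested.

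**Figure D3:**
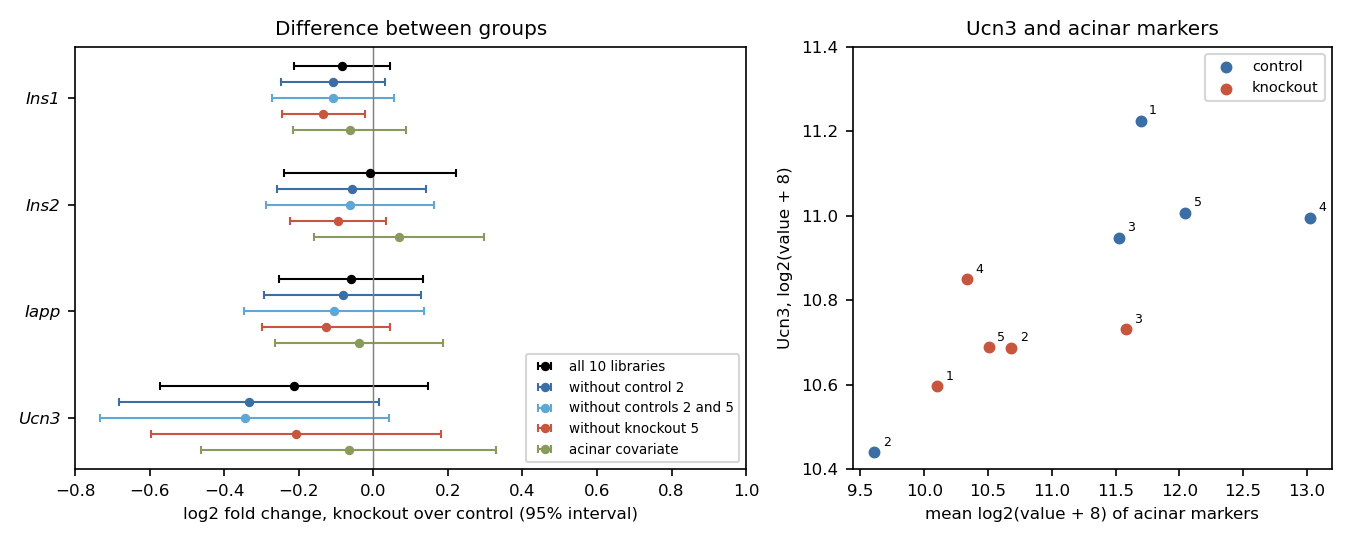
Left, log2 fold change of knockout over control with its 95% interval for each gene, with all 10 libraries and under 4 other settings. Right, Ucn3 against the mean log2(value + 8) of the acinar markers in each library. The Ucn3 estimate moves from -0.21 to -0.33 without control 2 and to -0.07 with the acinar covariate, and control 2 is lowest on both axes of the right panel.

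As a share of all normalized counts in a library, the 4 genes together took 16.2%, 15.7%, 17.0%, 17.2% and 17.1% in controls 1 to 5. In knockouts 1 to 5 they took 13.4%, 17.5%, 16.6%, 15.8% and 19.7%. Knockout 1 was the lowest and knockout 5 the highest library, and the means were 16.7% ± 0.638 and 16.6% ± 2.29. The control mean was 16.8% ± 0.512 (n = 3) without controls 2 and 5. Ins2 alone took 10.01% ± 0.516 in controls and 10.2% ± 1.60 in knockouts, Ins1 4.96% ± 0.164 and 4.77% ± 0.475, and Iapp 1.65% ± 0.202 and 1.63% ± 0.296. Ucn3 took 0.0307% ± 0.0048 and 0.0268% ± 0.0037, from 0.0209% in knockout 1 to 0.0352% in control 1. Over controls 1, 3 and 4 the means were 10.2% for Ins2, 4.94% for Ins1, 1.68% for Iapp and 0.0327% for Ucn3. These shares describe the totals of the table, which are not corrected for gene length.

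Tmem38b, Zfp101 and 0610011F06Rik, which were named after their values were seen, moved the denominator. Together they held 5.86% (knockout 2) to 28.1% (knockout 1) of a library's total. With these 3 genes left out of the total, the 4 members took 18.1% (control 2) to 22.5% (knockout 5), and knockout 1 rose from the lowest place to 18.7%, above control 2 and 3 other knockouts. The Ins1 share was then 5.72% ± 0.0858 in controls and 5.56% ± 0.412 in knockouts.

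**Figure D4:**
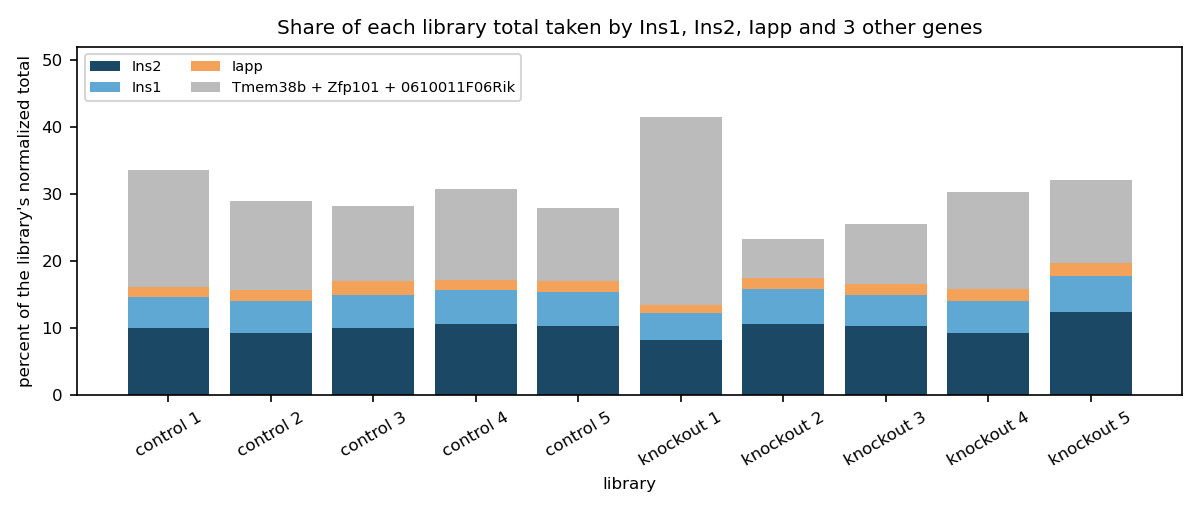
Percent of each library's normalized total taken by Ins2, Ins1 and Iapp, and by Tmem38b, Zfp101 and 0610011F06Rik together, as stacked bars from 0 for the 10 libraries. Ucn3, at most 0.0352%, is too small to draw. The 3 other genes take 28.1% in knockout 1 and 5.86% in knockout 2, the libraries with the highest and lowest totals.

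Between islet preparations of the same group, the insulin genes were among the steadier of the abundant genes. The SD of log2(value + 8), pooled over both groups, was 0.12 for Ins1, 0.17 for Ins2, 0.18 for Iapp and 0.22 for Ucn3. Among the 740 tested genes with a mean of at least 1000, whose median SD was 0.32, 14 genes (1.89%) had a smaller SD than Ins1. For Ins2 there were 69 (9.32%), for Iapp 81 (10.9%) and for Ucn3 152 (20.5%). Ins1, Ins2 and Iapp had means far above 1000, and no set of genes at a similar level was compared. The part of their high level in the small SD was not tested. The SD of Ins1, Ins2 and Iapp was larger in knockouts (0.14, 0.19 and 0.23) than in controls (0.09, 0.15 and 0.11), and that of Ucn3 was larger in controls (0.29 against 0.09). These differences in spread between the groups were not tested. Single libraries carried much of it: without knockout 5 the SD of Ins2 was 0.01 in knockouts and 0.15 in controls, so the direction turned, and the pooled SD was 0.11. Without control 2 the pooled SD of Ucn3 was 0.11. The counts of genes with a smaller SD moved as well with 1 library left out: for Ins1 from 3 (without knockout 3) to 30 (without knockout 1), for Ins2 from 14 (without knockout 5) to 114 (without knockout 1), for Iapp from 50 (without knockout 1) to 110 (without control 5), and for Ucn3 from 9 (without control 2) to 221 (without knockout 1). The log2 Ins2 to Ins1 ratio had a pooled SD of 0.10, below that of Ins1 or Ins2 alone.

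**Figure D5:**
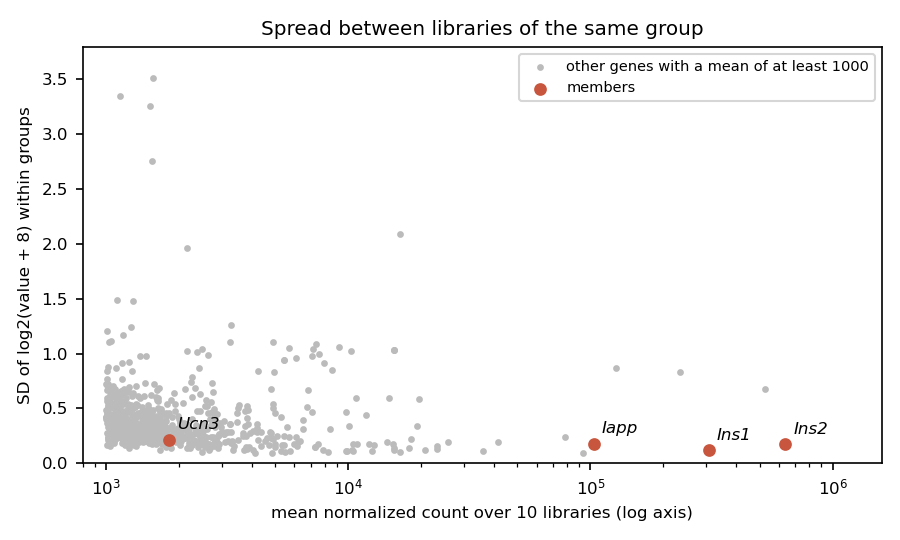
Pooled within-group SD of log2(value + 8) against the mean normalized count over 10 libraries (log axis), for the 740 tested genes with a mean of at least 1000, grey, and the 4 members, red. Ins1 lies near the lower edge at 0.12, and all 4 members lie below the median of 0.32.

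Ins1 and Ins2 varied together across the 10 libraries, with Pearson r = 0.798 (permutation p = 0.00521, adjusted 0.0313 over the 6 pairs) and Spearman rho = 0.830 (permutation p = 0.0047, adjusted 0.0282). Without control 4 and knockout 3, the libraries farthest from the median of Ins1, r was 0.931, and within groups it was 0.962 in controls and 0.7999 in knockouts. The value within knockouts rested on knockout 5, and it was 0.124 without that library. The relation rested in part on the scaling: with Tmem38b, Zfp101 and 0610011F06Rik out of the total, r was 0.565 (permutation p adjusted to 0.667). Without controls 2 and 5 it was 0.819 (permutation p adjusted to 0.0686), and rho was 0.810 (permutation p adjusted to 0.130). The other 5 pairs had r between 0.326 (Iapp and Ucn3) and 0.446 (Ins2 and Iapp), each with a permutation p adjusted to 0.357. Leaving out control 4 and knockout 5, the farthest libraries on the Ins2 axis, raised r of Ins2 and Ucn3 from 0.384 to 0.884 and lowered that of Ins2 and Iapp to 0.0636.

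By the same measure, Pearson r of log2(value + 8) over the 10 libraries, 6930 genes with a mean of at least 100 were ranked by their likeness to each member. Amd1 (r = 0.905), Trmt1 (0.889) and Otub1 (0.886) were most like Ins1, and Ins2 came 7th. Mob4 (0.897), H2afz (0.889) and Snrpd2 (0.881) were most like Ins2, and Ins1 came 18th. Dnajb14 (0.919) and Pigt (0.911) were most like Iapp, and Mrps24 (0.919), Dusp7 (0.914) and Rpl32 (0.905) most like Ucn3. These are the extremes of many correlations over 10 points that share library and depth, and they are given as a description.

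The other genes of the hormone pathways were taken from lists of genes with known roles, and none of their tested members had a limma adjusted p under 0.05. Among 21 transcription factors of the insulin genes, 5 had higher and 16 lower means in knockouts, with a median log2 fold change of -0.22 (-0.18 without controls 2 and 5), against -0.03 for all genes. Pdx1, which binds and activates the insulin and Iapp promoters, was at 776 ± 155 in controls and 661 ± 190 in knockouts (log2 fold change -0.25 ± 0.25; -0.21 without controls 2 and 5). Mafa, an activator of insulin transcription in mature β cells, was at 1496 ± 369 and 1188 ± 322 (-0.34 ± 0.22; -0.40 without controls 2 and 5), and Neurod1, a partner of both at the insulin genes, at 1534 ± 95.8 and 1308 ± 236 (-0.24 ± 0.18; -0.27 without them). The groups overlapped for all 3 genes. Srf, the serum response factor, had the smallest p of the list, with values from 875 to 1307 in controls and from 581 to 732 in knockouts. Its groups did not overlap, as for 0.862% of all tested genes, the log2 fold change was -0.61 ± 0.20, and the limma p was 0.00795 (adjusted 0.942; -0.51 without controls 2 and 5, unadjusted p = 0.0505).

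The promoters on which such factors act are shown as the 250 bases before the gene start for the 3 members found in the RefSeq table of GRCm38.p6, Ins1 at chr19:52264047-52264296 (plus strand), Iapp at chr6:142298175-142298424 (plus strand) and Ucn3 at chr13:3945350-3945599 (minus strand). The Ins2 promoter is not shown. Capitals mark TAAT on either strand, the core bound by homeodomain proteins such as Pdx1, and GCCATCTG, the E box of the rodent insulin promoter.
Ins1 promoter: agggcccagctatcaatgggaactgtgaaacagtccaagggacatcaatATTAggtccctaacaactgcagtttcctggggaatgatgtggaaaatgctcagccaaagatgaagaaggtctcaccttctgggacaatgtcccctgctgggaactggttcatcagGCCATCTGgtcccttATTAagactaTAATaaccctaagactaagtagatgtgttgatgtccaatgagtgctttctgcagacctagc
Iapp promoter: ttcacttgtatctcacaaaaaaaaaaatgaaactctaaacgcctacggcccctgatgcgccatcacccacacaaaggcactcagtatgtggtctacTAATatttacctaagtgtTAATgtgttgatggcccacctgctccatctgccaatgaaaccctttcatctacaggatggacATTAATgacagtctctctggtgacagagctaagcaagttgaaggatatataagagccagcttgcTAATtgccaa
Ucn3 promoter: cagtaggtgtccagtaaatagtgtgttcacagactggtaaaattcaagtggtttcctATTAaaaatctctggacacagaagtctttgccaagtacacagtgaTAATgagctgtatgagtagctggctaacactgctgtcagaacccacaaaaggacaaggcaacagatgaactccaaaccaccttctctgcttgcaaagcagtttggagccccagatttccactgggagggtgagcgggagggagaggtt
TAAT was found 3 times in the Ins1 window, 5 times in Iapp and 2 times in Ucn3, and 54.9% of 32851 promoters of the same length held it. GCCATCTG occurred 1 time, in Ins1, and in 1.11% of all promoters. The E box pattern CANNTG, which can cover GCCATCTG, occurred 2 times in Ins1, 3 times in Iapp and 2 times in Ucn3 and was held by 66.2% of all promoters. TATAAA was found in 0 of the 3 windows and in 12.4% of all promoters. All motifs were searched on both strands, and a match is a description of letters only.

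Of 9 genes that bind insulin mRNA or regulate its translation, 3 had higher and 6 lower means in knockouts, with a median of -0.14. Eif2s1, the α subunit of the initiation factor eIF2, had the smallest p of this list (log2 fold change -0.53 ± 0.35, limma adjusted p = 0.942; -0.70 without controls 2 and 5). Among 13 tested genes of prohormone processing, 7 were higher and 6 lower, with a median of 0.06. Pcsk1, the convertase that makes the first cuts in proinsulin, had 2408 to 2740 normalized counts in controls and 2274 to 5590 in knockouts, the highest value being that of knockout 1. Pcsk2, the convertase that acts with it and also processes pro-amylin, was at 14864 ± 1148 and 15923 ± 1681 (log2 fold change 0.10 ± 0.09). Cpe, the carboxypeptidase that trims the cut ends, was at 9977 ± 692 and 10874 ± 944 (0.12 ± 0.10). Sec11c, a catalytic subunit of the signal peptidase, had the smallest p, with 636 to 813 in controls and 839 to 1232 in knockouts and no overlap, as for 0.862% of all tested genes (0.48 ± 0.20, limma adjusted p = 0.942, unadjusted p = 0.0294; 0.40 without controls 2 and 5, unadjusted p = 0.108).

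The 15 genes of the insulin granule had 11 higher and 4 lower means in knockouts, with a median of 0.06 (0.10 without controls 2 and 5). Chga, chromogranin A, was at 90632 ± 7408 in controls and 95625 ± 3514 in knockouts (log2 fold change 0.08 ± 0.06). Scg2, secretogranin II, had the smallest p, with 32735 to 43529 in controls and 39234 to 54170 in knockouts (0.30 ± 0.10, limma adjusted p = 0.942, unadjusted p = 0.00762; 0.24 without controls 2 and 5, unadjusted p = 0.0663). Chgb, chromogranin B, followed with 0.18 ± 0.08 (limma adjusted p = 0.942, unadjusted p = 0.0479; 0.18 without controls 2 and 5, unadjusted p = 0.1).

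Insr, the insulin receptor, was at 508 ± 149 in controls and 346 ± 92.0 in knockouts (log2 fold change -0.54 ± 0.29, limma adjusted p = 0.942; -0.69 without controls 2 and 5), and Ide, which degrades insulin and amylin, at 199.9 ± 122 and 204 ± 59.2. Among 7 tested genes of insulin reception and clearance 4 were higher and 3 lower, and the median of 0.08 became -0.22 without controls 2 and 5. Calcr, the core of the amylin receptor, was listed at 0 in 9 of 10 libraries, while its partners Ramp1 and Ramp2 were at 63.4 ± 40.8 and 92.2 ± 27.3 in controls and at 84.7 ± 61.6 and 113 ± 44.7 in knockouts. Among 4 tested genes of the amylin and calcitonin family 3 were higher and 1 lower, with a median of 0.30. In the urocortin family, 1 of 6 genes was in the table, Crhr1, and it was listed at 0 in 5 of 10 libraries. Crhr2, the receptor of urocortin 3, was also looked for but was not found among the named genes, so no value can be given. Igf2, an insulin-like growth factor and the tested gene of the insulin and relaxin family, was at 11.8 to 194 in controls and 0 to 19.1 in knockouts (log2 fold change -1.67 ± 0.73, limma adjusted p = 0.942, unadjusted p = 0.034). Igf2 did not pass the filter on low values without controls 2 and 5. With all libraries it reached 10 counts in 5 libraries only through the controls, where it was high. Its direction and p were thus shaped by the filter and cannot show a difference.

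Markers of β-cell maturity had 2 higher and 13 lower means among 15 tested genes, with a median of -0.26 (-0.30 without controls 2 and 5). Slc2a2, the glucose transporter GLUT2, had the smallest p, with 2861, 2427, 3064, 3109 and 3153 in controls 1 to 5. Knockouts 1 to 5 had 2787, 2561, 1719, 1708 and 1824. Knockouts 3, 4 and 5 were below every control, and knockouts 1 and 2 lay within the control range. The log2 fold change was -0.49 ± 0.17 (limma adjusted p = 0.942, unadjusted p = 0.0103; -0.54 without controls 2 and 5).

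The other islet hormones give the level of the neighbouring endocrine cells. Gcg, glucagon of α cells, was at 81431 ± 11945 in controls and 75580 ± 14141 in knockouts (log2 fold change -0.12 ± 0.13; 0.03 without controls 2 and 5). Sst, somatostatin of δ cells, was at 10895 ± 1500 and 9964 ± 1105 (-0.13 ± 0.11; 0.01 without controls 2 and 5). Ppy, pancreatic polypeptide, was at 12037 ± 3122 and 9587 ± 5772, and Pyy, peptide YY, at 3902 ± 1132 and 3566 ± 1450. All 5 tested genes of this list, Npy among them, had lower means in the knockouts, with a median of -0.16. Of all genes tested, 52.4% were lower. Without controls 2 and 5, the 4 genes of the list that passed the filter had a median of 0.02. Npy, neuropeptide Y, had the smallest p of that list, at 11.5 to 101 in controls and at 0 in 4 of 5 knockouts (limma adjusted p = 0.881, unadjusted p = 0.0016). Npy did not pass the filter either without controls 2 and 5. With 4 of 5 knockouts at 0, it passed with all libraries only through the controls, where it was high. The direction and p of Npy were thus shaped by the filter and cannot show a difference. Counts of lower genes that include Npy share this limit. Aldh1a3, an enzyme raised in dedifferentiated β cells, had 0.918 to 80.4 in controls and 18.1 to 225 in knockouts (log2 fold change 1.95 ± 0.76, limma adjusted p = 0.942, unadjusted p = 0.02; 1.66 without controls 2 and 5, unadjusted p = 0.0865). Aldh1a3 met the filter by its 5 knockouts alone, whatever the controls. It was 1 of 6 tested genes of the immature and disallowed list. Of these, 1 was higher and 5, Npy among them, were lower, with a median of -0.65 (-0.31 over the 5 genes that passed the filter without controls 2 and 5).

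Markers of other cells in an islet preparation were present in all libraries. The summed level of 10 α-cell markers was 78473 to 109271 in controls and 70022 to 106653 in knockouts, that of 9 δ and PP-cell markers 21242 to 35086 and 16657 to 36859, that of 10 endothelial markers 2692 to 3466 and 3133 to 4077, and that of 9 ductal markers 1225 to 1598 and 1140 to 2541. The 9 immune markers summed to 771 to 1216 and 700 to 1530, and the 9 stromal markers to 631 to 1007 and 569 to 886. The ranges overlapped between the groups for each of these lists. Ins1, Ins2 and Iapp, the defining β-cell hormones, were the 3rd, 1st and 6th most abundant of 17945 genes by mean, which checks the labelled tissue.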

How the data were processed

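Per the labels' protocols, islet total RNA was depleted of ribosomal RNA, made into stranded random-primed libraries and sequenced on an Illumina NextSeq instrument. The authors deposited 1 table of normalized counts per gene, a signal unit, whose making is not recorded in it. HTSeq, DESeq2 and STAR 2.4.0.1 appear in the submitters' processing notes, with no role stated, and the genome build was not given in the sources used here. Besides counts, the deposited table holds the authors' log2 fold changes, test scores (stat) and p-values, which are quoted by name only. Between 22.6% and 33.6% of a library's values above 0 were whole multiples of its commonest low value (within 0.01), so reads could not be recovered and no count model was run. A row without a gene name (0.00774% to 0.0251% of a total) was left out.

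Values were compared as log2(value + 8) with limma 3.58.1 in R 4.3.3 (mean-variance trend, robust variances, 2-sided, Benjamini-Hochberg adjusted at 0.05) over 11711 genes that reached 10 normalized counts in 5 or more libraries. This scale understates changes of low genes. No covariate or pairing entered the comparison of 5 controls with 5 knockouts. Ratios were tested by exact permutation over 252 arrangements, and correlations by 100000 permutations. Fitting was tested on simulated data. Lists of genes are described by counts and medians.

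The members, lists and tests were chosen with earlier results of these data known. Genes named are the members, the 3 genes most like each, Grk5, Esr1, a fixed set of hormones, factors, processing enzymes and receptors, and up to 2 genes with the smallest p per list. Not every gene this rule allows is reported. Alternatives changed the scaling, filter, pseudocount, variance model, covariate and libraries. Scaling without Tmem38b, Zfp101 and 0610011F06Rik, and several omissions of libraries, were chosen after seeing the data. Python 3.11.15 with scipy 1.17.1 and pandas 2.3.3 was used. Sequences and positions are from GENCODE M21 and RefSeq on GRCm38, whether or not that was the authors' build.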

Additional observations from a re-analysis of the deposited data

Results flagged for a closer look

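In a group of 5 libraries, a value was picked out when its gap to the nearest other value was large against the group's whole range. Chance picks out about 1 in 20 groups, and 28 groups of 5 values were looked at, of which 3 held such a value. Ins2 in knockout 5 was at 803858 normalized counts, and the nearest knockout was at 599965. Iapp in control 3 was at 119439, and the nearest control was at 104197. The Iapp share of the library total in control 3 was 2.00%, and the nearest control was at 1.63%.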

How the results depend on the processing

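The values have no known read depth, the groups hold 5 libraries each, and 1 library moved several values by more than the other settings did. Ins1 and Ucn3 kept a negative log2 fold change and a p above 0.05 in 25 of 25 alternatives each. The Ins2 to Ins1 ratio stayed higher in knockouts and short of the threshold in 13 of 13. These p-values were adjusted for the limma fits and unadjusted for the exact permutation tests. The cause of the changes below was not tested. The Ins2 log2 fold change turned to 0.01 with total-count scaling (0.0123) and with the total without the 4 members (0.0119), to 0.03 with the total without Tmem38b, Zfp101 and 0610011F06Rik (0.0297), and to 0.07 with the acinar covariate (0.0677). With each library left out in turn it ran from -0.0956 (without knockout 5) to 0.0340 (without control 4), that of Iapp from -0.128 to 0.0119 (without knockout 1), that of Ins1 from -0.135 to -0.0363 and that of Ucn3 from -0.333 to -0.137. Without controls 2, 3 and 5, Ucn3 was at -0.40, Ins1 at -0.15, Ins2 at -0.14 and Iapp at -0.03 (limma adjusted p = 0.999 for each). Genes called by limma numbered 1 without the variance trend and the robust variances together, 1 without controls 2 and 5, 3 without controls 2, 3 and 5, and 0 to 1 with each library left out; none of the 4 members was called. The log2 ratio of Iapp to Ins2 was 0.0039 by medians and -0.115 to 0.0226 with each library left out, and that of Iapp to Ins1 was -0.0174 to 0.105. The pooled SD ran from 0.113 (without knockout 5) to 0.184 for Ins2 and from 0.107 (without control 2) to 0.230 for Ucn3. The correlation of Ins1 and Ins2 was 0.565 with the total without Tmem38b, Zfp101 and 0610011F06Rik, 0.819 without controls 2 and 5 (adjusted p = 0.0686), and 0.752 to 0.925 with each library left out, where the adjusted p ran from 0.00222 to 0.133 by permutation. That of Ins1 and Iapp was 0.769 with the total without the 4 members (permutation p adjusted to 0.0492; r = 0.112 without knockouts 1 and 5), and that of Ins1 and Ucn3 was -0.0167 with the total without Tmem38b, Zfp101 and 0610011F06Rik. No paired analysis was possible because the labels give no replicate numbers that the groups share.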
